A study of Mus musculus with 9 samples.

Results

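Matrix proteases and their inhibitors were taken as the protein-coding mouse genes named Mmp with a number (and a letter where there is one), Timp1 to Timp4, Adamts with a number or Adamtsl with a number. The rule found 50 members among the 55401 genes of the deposited table: 22 MMP, 4 TIMP, 19 ADAMTS and 5 ADAMTS-like genes. Of these, 42 reached a normalized count of 10 in 3 or more of the 9 libraries and were tested. Mmp1a stayed out because the annotation does not class it as protein coding. RNA came from dermal fibroblasts of newborn wild-type mice, grown as primary cultures in DMEM with 10% serum. Lipid-depleted tumor-conditioned medium (lipid-depleted TCM), tumor-conditioned medium (TCM) and control made up 3 groups of 3 libraries. TCM was collected after 24 h on cultures of YUMM1.7, an established mouse melanoma line, and its lipids were taken out with the adsorbent Cleanascite. The labels do not give the length of the treatment, the medium of the control cultures, or whether replicates were separate animals or cultures. P-values therefore measure only the spread between these libraries, which may be technical. No group had control medium passed through Cleanascite.

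MMPs are zinc-dependent endopeptidases that are made as inactive precursors and cleave collagens, proteoglycans, growth factors and other proteases. ADAMTS enzymes are related secreted metalloproteinases that cut proteoglycans or trim procollagens, and ADAMTS-like proteins share their ancillary domains but have no catalytic domain. TIMPs bind the active site of MMPs and block them, and the product of Timp3 also blocks some ADAMTS enzymes. Fibroblasts are a source of many, though not all, of these proteins in skin.

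Values are given as normalized counts, which are the reads of a gene after division by the size factor of its library. Between 51015024 and 64965906 whole reads per library could be recovered from them. Fibroblast markers were found in every group, with a sum over 10 markers of 1540628 to 1592956 normalized counts in lipid-depleted TCM, 1166280 to 1358082 in TCM and 2297151 to 2363511 in control. Most of that sum was Col1a1, Col1a2 and Col3a1, and Col1a1 alone averaged 391091, 272808 and 927289 in the same order. Fap averaged 550, 203 and 297. In TCM against control 4 of the 10 were called higher and 4 lower, where 60.5% of all genes tested were called. Of 6 neutrophil markers, 3 were at 0 in every library, and the sum of the 6 reached at most 3.04. Of 8 macrophage markers, Ptprc, Adgre1, Itgam and Mrc1 were too low to test (at most 4.33 on average), and the sum of the 8 was 456 to 475 normalized counts in lipid-depleted TCM, 257 to 307 in TCM and 310 to 404 in control. Lyz2, the most abundant of them, averaged 365 in lipid-depleted TCM, 127 in TCM and 204 in control, Csf1r averaged 11.8, 16.5 and 78.9, and Cd68 52.8, 92.1 and 43.3 in the same order. The sum of 7 melanocyte or melanoma markers was 1002 to 1121 normalized counts in lipid-depleted TCM, 880 to 955 in TCM and 757 to 863 in control. Most of it was Mitf, which averaged 716, 604 and 511 in the same order, while Mlana averaged 32.2, 3.51 and 4 and Sox10 123, 191 and 123. Of the 6 tested, 2 were called higher and 1 lower in lipid-depleted TCM than in TCM, where 45.2% of all genes tested were called. Pericyte markers moved with the treatments, and 7 of 8 were lower in TCM than in control while Des was higher. Their sum was 18487 to 18661 normalized counts in lipid-depleted TCM, 12901 to 14595 in TCM and 35315 to 37358 in control. The part of cells of these other types in the results was not tested, and in these bulk samples fewer cells of a type and less RNA per cell cannot be told apart.

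In TCM the stromelysins Mmp3 and Mmp11, the collagenase Mmp13 and the gelatinase Mmp2 were higher than in control, while most membrane-type MMPs and ADAMTS genes, Timp2, Timp3 and Timp4 were lower. With lipids removed from the medium, more proteases were higher than lower relative to TCM, while Timp2 and Timp3 rose, Timp1 fell and Timp4 was not called. In TCM against control, limma called 36 of the 42 tested members at an adjusted p below 0.05, with 13 higher and 23 lower. Over all 16950 genes tested, 60.5% were called, 29.5% higher and 31.0% lower. All libraries of TCM lay on one side of all control libraries for 37 tested members, against 63.9% of all genes tested. Of the calls, 6 higher and 13 lower members were at least 2-fold, against 5.26% and 8.24% of all genes tested (13.5% together). The median log2 change was -0.45 for the tested members and -0.00223 for all genes tested.

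In lipid-depleted TCM against TCM, 28 of the 42 tested members were called, 23 higher and 5 lower, against 45.2% of all genes tested (22.7% higher and 22.5% lower). The groups did not overlap for 32 members, against 52.4% of all genes tested, and 5 higher and 1 lower member were at least 2-fold, against 3.12% and 2.96% (6.08% together). In lipid-depleted TCM against control, 17 were higher and 19 lower, against 60.0% of all genes tested (29.4% higher and 30.6% lower). Here 40 members did not overlap, against 71.2% of all genes tested, and 8 higher and 7 lower members were at least 2-fold, against 5.98% and 7.90% (13.9% together). Mmp8, Mmp10 and Mmp12 had no control library at 10 normalized counts and passed the filter only through treated libraries, so Mmp8 and Mmp10, both counted as higher than control, could only have passed by being higher. Mmp12 reached 10 in the lipid-depleted TCM libraries alone, so the same holds for it in both comparisons with that group. Log2 changes were taken after adding 1 to each normalized count, and for a gene with few reads they can be off in either direction. In TCM against control, Mmp8 had 3.53 in the main fit and 4.85 by edgeR on the recovered reads, while Mmp3 had 3.44 and 3.26. P-values from limma were adjusted by the Benjamini-Hochberg procedure over all 16950 genes. For any member whose groups do not overlap, a two-sided exact permutation test gives p = 0.1, which is as small as 3 libraries against 3 allow. With all libraries brought to 1 total, the median log2 change of all genes was 0.155 in TCM against control and 0.15 in lipid-depleted TCM against control. The share of higher genes among all calls was then 66.3% in place of 48.7% and 65.6% in place of 49%. Under that scaling the calls of members were 14 higher and 22 lower, and 20 higher and 18 lower, in these 2 comparisons.

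**Figure D1:**
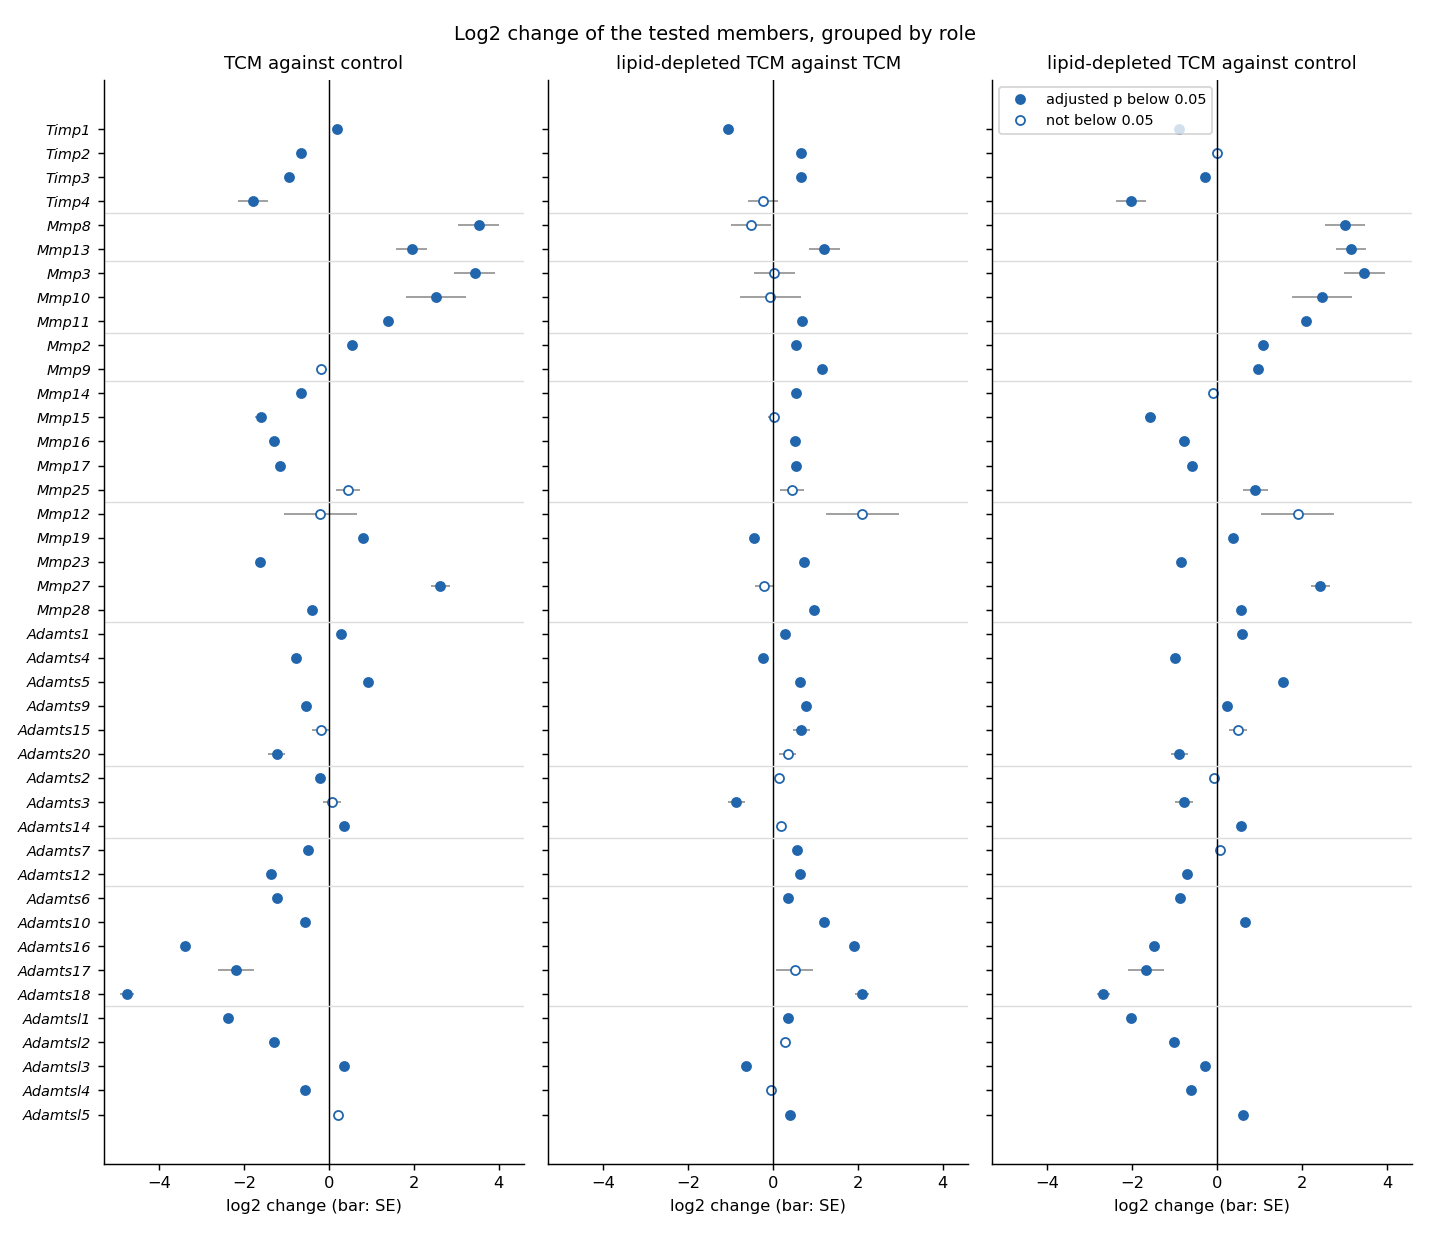
Log2 change of each of the 42 tested members (points, bar SE) in the 3 comparisons, with filled points at a limma adjusted p below 0.05 and open points above it; rows are grouped by role. Stromelysins and collagenases lie at the far right against control, membrane-type MMPs other than Mmp25 and most ADAMTS genes at the left, and Timp1 is the only inhibitor whose filled point lies left of 0 when lipid-depleted TCM is set against TCM.

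The TIMP inhibitors did not move together. Timp2 and Timp3 fell in TCM and were higher again without lipids, whereas Timp1 rose slightly in TCM and dropped below control without lipids. Timp1 encodes a secreted inhibitor that acts poorly on membrane-type MMPs. Timp1 (ENSMUSG00000001131.11, chromosome X, 20870166 to 20874735, plus strand, GRCm38) had 5007, 5259 and 5302 normalized counts in lipid-depleted TCM, 11677, 10170 and 10945 in TCM, and 9371, 9575 and 9821 in control. The 3 groups did not overlap, with TCM highest and lipid-depleted TCM lowest. Timp1 had a log2 change of -1.07 (SE 0.05, limma adjusted p = 7.9e-09) in lipid-depleted TCM against TCM, and -0.89 (SE 0.05, limma adjusted p = 1.2e-08) against control. Timp1 had a log2 change of 0.19 (SE 0.05, limma adjusted p = 0.0069) in TCM against control.

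Timp2, whose product both inhibits MMPs and helps Mmp14 to activate Mmp2, had 37791, 38303 and 37684 normalized counts in lipid-depleted TCM, 24847, 23428 and 24490 in TCM, and 38177, 38242 and 38245 in control. TCM libraries were the low ones, and lipid-depleted TCM overlapped control. Timp2 had a log2 change of -0.66 (SE 0.04, limma adjusted p = 1.2e-08) in TCM against control, and in lipid-depleted TCM against TCM its log2 change was 0.65 (SE 0.04, limma adjusted p = 4.0e-08). Lipid-depleted TCM and control differed by -0.01 (SE 0.04, limma adjusted p = 0.81) on the log2 scale, a difference that was 0.14 (limma adjusted p = 0.011) with libraries scaled to the same total.

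Timp3 encodes the TIMP that stays bound to matrix and also blocks ADAMTS aggrecanases. Timp3 had 63499, 59521 and 61263 normalized counts in lipid-depleted TCM, 38889, 39851 and 38389 in TCM, and 73219, 73430 and 77584 in control. All groups were separate, with TCM lowest and lipid-depleted TCM between TCM and control. Timp3 had a log2 change of -0.94 (SE 0.04, limma adjusted p = 1.3e-09) in TCM against control, and in lipid-depleted TCM against TCM it was 0.65 (SE 0.04, limma adjusted p = 1.1e-07). Lipid-depleted TCM against control had a log2 change of -0.28, limma adjusted p = 8.6e-05, or -0.13 with libraries scaled to the same total. Syn3 on the opposite strand shares 21.3% of the exon bases of Timp3 but averaged only 42.1 normalized counts.

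Timp4, a TIMP of restricted tissue distribution, was scarce in all groups. Timp4 had 5.79, 15.2 and 7.81 normalized counts in lipid-depleted TCM, 11.4, 12.3 and 8.67 in TCM, and 35.1, 37.1 and 47 in control. Every treated library was below every control library, and the treated groups overlapped. Timp4 had a log2 change of -1.79 (SE 0.35, limma adjusted p = 0.00065) in TCM against control and one of -2.03 (SE 0.35, limma adjusted p = 0.00024) in lipid-depleted TCM against control.

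**Figure D2:**
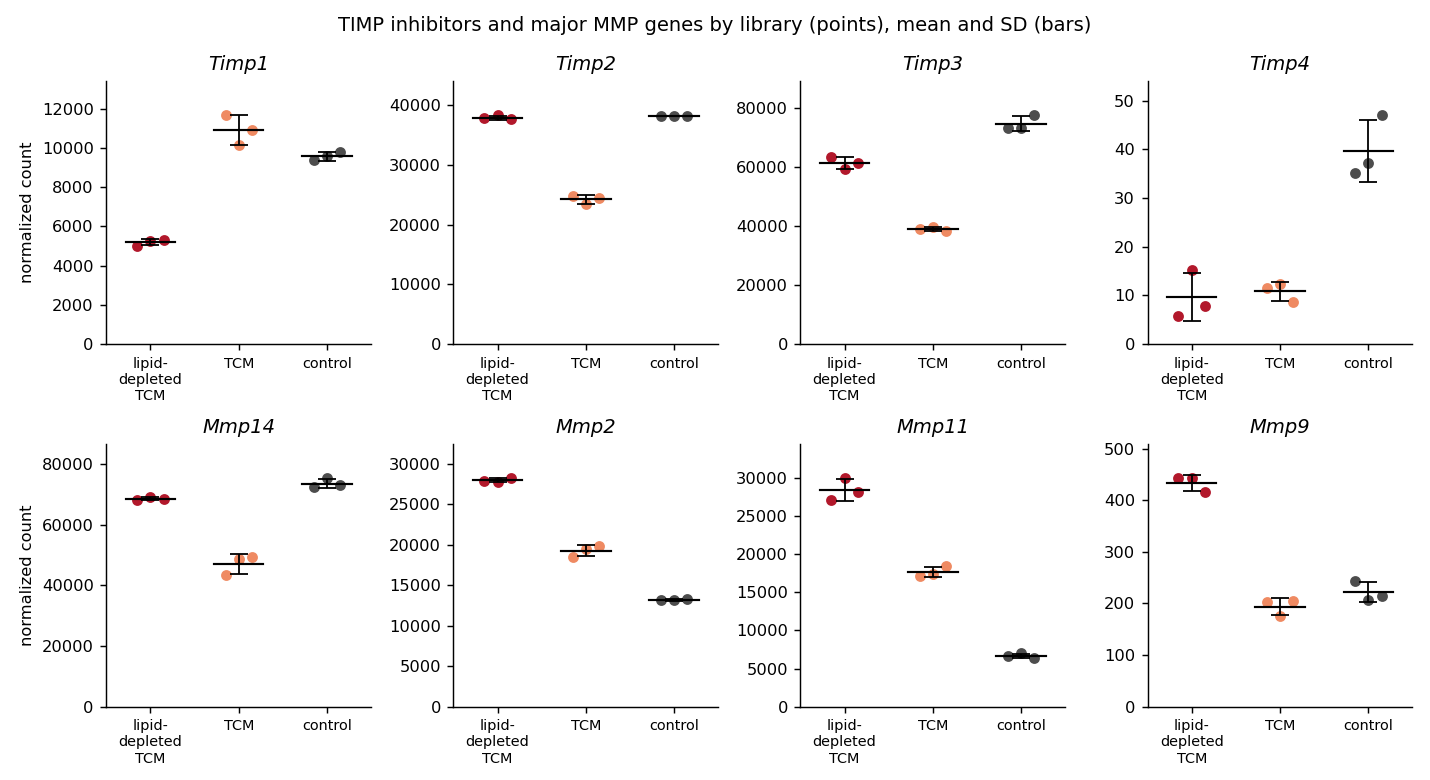
Normalized counts of Timp1 to Timp4 and of Mmp14, Mmp2, Mmp11 and Mmp9 in each library (points), with group mean and SD (n = 3); every axis starts at 0. Timp1 is lowest in lipid-depleted TCM (mean 5189), Timp2, Timp3 and Mmp14 are lowest in TCM, and Mmp2 and Mmp11 are highest in lipid-depleted TCM and lowest in control.

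Levels of different genes were compared per kilobase of annotated exon. Mmp14 had the highest mean over all libraries, 10600 normalized counts per kilobase, followed by Timp1 at 9650, Timp2 at 8590, Timp3 at 7170, Mmp11 at 6330 and Mmp2 at 5980. That order holds over all libraries together and not in each group. Lipid-depleted TCM had Mmp14 first at 11500, Mmp11 second at 10200 and Timp1 sixth at 5840 normalized counts per kilobase. In TCM Timp1 was first at 12300 and Mmp14 second at 7900, and in control Mmp14 was first at 12300 and Timp1 second at 10800. Adamts1 led its family at 4280 normalized counts per kilobase. The summed level of the 4 TIMP genes was 23137, 23065 and 23167 normalized counts per kilobase in lipid-depleted TCM, 24304, 22361 and 23327 in TCM, and 29349, 29621 and 30410 in control. TIMP sums of both treated groups were below all control libraries. Timp1 made up 25.3% of the TIMP sum in lipid-depleted TCM, 52.8% in TCM and 36.2% in control.

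For the 22 MMP genes the summed level was 33587, 34853 and 34374 normalized counts per kilobase in lipid-depleted TCM, 22963, 23958 and 24792 in TCM, and 23353, 23888 and 23210 in control. Lipid-depleted TCM was higher than all other libraries, and TCM overlapped control. Whether the MMP sum in TCM lay above or below control depended on the setting, since it averaged 24868 against 21909 with libraries scaled to the same total and 33117 against 36458 with the longest transcript as gene length. The ratio of the MMP sum to the TIMP sum was 1.45, 1.51 and 1.48 in lipid-depleted TCM, 0.945, 1.07 and 1.06 in TCM, and 0.796, 0.806 and 0.763 in control. This ratio did not overlap between any of the groups, and the 3 groups kept that order with the longest transcript as gene length. Scaling to the same total cannot change the ratio, because it multiplies both sums of a library by the same factor. It is a ratio of transcript levels and was given no test, since its genes were chosen with results known. For ADAMTS genes the summed level was 14457, 14205 and 14323 normalized counts per kilobase in lipid-depleted TCM, 10754, 10920 and 10981 in TCM, and 11267, 11350 and 11320 in control. Lipid-depleted TCM was highest, while the order of TCM and control turned with scaling to the same total (11325 in TCM and 10553 in control).

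**Figure D3:**
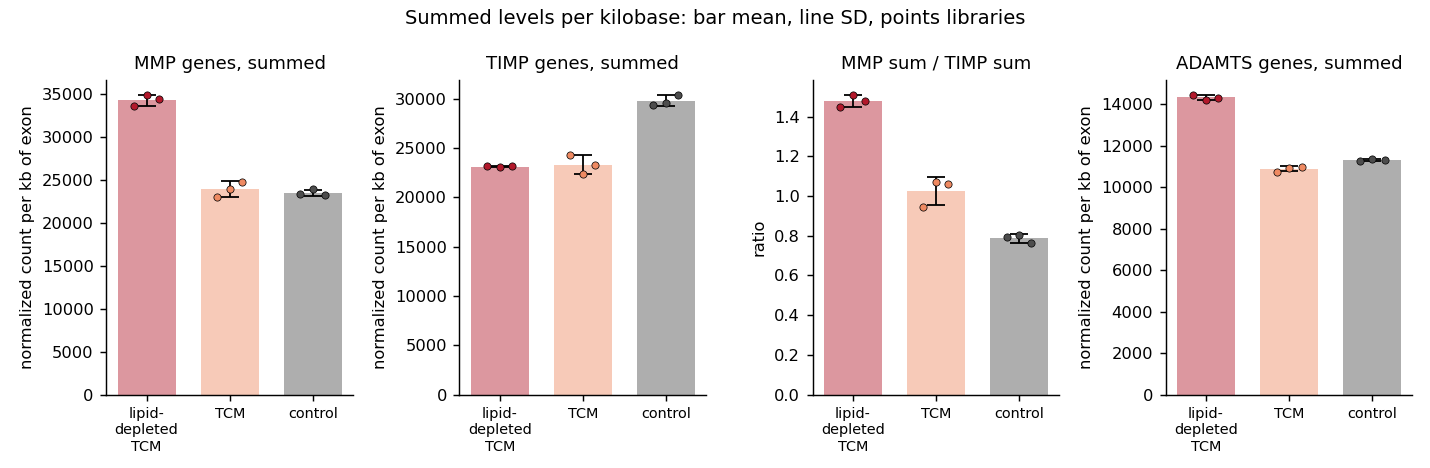
Summed normalized counts per kilobase of exon over the MMP, TIMP and ADAMTS genes, and the ratio of the MMP sum to the TIMP sum, by group (bar mean, line SD, points the 3 libraries; axes start at 0). The ratio averages 1.48 in lipid-depleted TCM, 1.03 in TCM and 0.788 in control.

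Gelatinases digest denatured collagen and basement membrane collagen. Mmp2 (ENSMUSG00000031740.8, chromosome 8, 92827291 to 92853420, plus strand, GRCm38), the gelatinase that fibroblasts make constitutively, had 27860, 27793 and 28267 normalized counts in lipid-depleted TCM, 18490, 19517 and 19867 in TCM, and 13125, 13203 and 13360 in control. The groups were separate, with control lowest and lipid-depleted TCM highest. Mmp2 had a log2 change of 0.54 (SE 0.04, limma adjusted p = 9.2e-08) in TCM against control, one of 0.54 (SE 0.04, limma adjusted p = 2.9e-07) in lipid-depleted TCM against TCM and one of 1.08 (SE 0.04, limma adjusted p = 1.4e-10) in lipid-depleted TCM against control. Mmp9, the inducible gelatinase, had 443, 443 and 416 normalized counts in lipid-depleted TCM, 202, 176 and 204 in TCM, and 243, 206 and 215 in control. Lipid-depleted TCM stood above the rest, and TCM against control was not called (log2 change of -0.19, limma adjusted p = 0.12). Mmp9 had a log2 change of 1.16 (SE 0.10, limma adjusted p = 1.3e-06) in lipid-depleted TCM against TCM, and against control it was 0.97 (SE 0.10, limma adjusted p = 2.6e-06). Per kilobase, Mmp9 averaged 80.1 normalized counts against 5980 for Mmp2.

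Membrane-type MMPs sit on the cell surface, and Mmp14 is the one that cleaves fibrillar collagen and activates pro-Mmp2. Mmp14 (ENSMUSG00000000957.11, chromosome 14, 54431612 to 54445364, plus strand, GRCm38) had 68110, 69044 and 68615 normalized counts in lipid-depleted TCM, 43270, 48646 and 49289 in TCM, and 72404, 75389 and 72948 in control. TCM libraries were lowest, and those of lipid-depleted TCM lay just under control without overlap. Mmp14 had a log2 change of -0.65 (SE 0.05, limma adjusted p = 2.2e-07) in TCM against control and one of 0.55 (SE 0.05, limma adjusted p = 2.7e-06) in lipid-depleted TCM against TCM, while lipid-depleted TCM against control was not called (log2 change of -0.10, limma adjusted p = 0.1) and had the opposite sign, 0.05, when all libraries had 1 total.

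Of the other membrane-type genes tested, all but Mmp25 were lower in TCM than in control. Mmp15 had 110, 139 and 114 normalized counts in lipid-depleted TCM, 110, 111 and 138 in TCM, and 368, 359 and 359 in control. Both treated groups were far below control and overlapped each other. Mmp15 had a log2 change of -1.60 (SE 0.13, limma adjusted p = 2.4e-07) in TCM against control and one of -1.58 (SE 0.13, limma adjusted p = 2.5e-07) in lipid-depleted TCM against control. Mmp16 averaged 240 ± 19.2 normalized counts in lipid-depleted TCM, 167 ± 16.6 in TCM and 414 ± 29.3 in control, and Mmp17, which is tethered by a lipid anchor, averaged 2144 ± 11.6 normalized counts in lipid-depleted TCM, 1472 ± 131 in TCM and 3229 ± 10.6 in control. For both genes, lipid-depleted TCM lay between the other groups, with log2 changes of -0.78 and -0.59 against control (limma adjusted p = 3.3e-05 and 2.4e-06). Mmp25, another lipid-anchored enzyme, averaged 32.9 ± 5.05 normalized counts in lipid-depleted TCM, 24.4 ± 8.08 in TCM and 17.4 ± 4 in control. It was called only in lipid-depleted TCM against control (log2 change of 0.90, limma adjusted p = 0.018), and that call was lost when control replicate 1 (limma adjusted p = 0.075), lipid-depleted TCM replicate 1 (0.066) or lipid-depleted TCM replicate 3 (0.053) was left out.

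On chromosome 9, 9 of the MMP members lie side by side between 7272514 and 7699585 (GRCm38), in the order Mmp13, Mmp12, Mmp1b, Mmp3, Mmp10, Mmp8, Mmp27, Mmp20 and Mmp7. The cluster holds collagenases, stromelysins, macrophage elastase and matrilysin, many of them induced through the transcription factor AP-1 in stimulated fibroblasts. In control cultures none of the 9 exceeded 26.6 normalized counts. Promoter windows were taken from RefSeq (GRCm38.p6, 250 bases before to 50 after a gene start). They are shown for the 6 tested genes of the cluster, which share this locus. Capitals mark the AP-1 letters TGANTCA and the TATA letters TATAAA, searched on both strands. For Mmp12 the second of its annotated starts is shown; the first holds neither motif.
Mmp13 (chr9:7272264-7272563, plus strand): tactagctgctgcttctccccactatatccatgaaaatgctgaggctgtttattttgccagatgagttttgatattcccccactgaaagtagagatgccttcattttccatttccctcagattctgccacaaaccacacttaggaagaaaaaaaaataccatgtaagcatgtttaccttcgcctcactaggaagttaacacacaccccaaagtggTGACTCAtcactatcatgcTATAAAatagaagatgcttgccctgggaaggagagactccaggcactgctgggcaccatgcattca
Mmp12 (chr9:7347124-7347423, plus strand): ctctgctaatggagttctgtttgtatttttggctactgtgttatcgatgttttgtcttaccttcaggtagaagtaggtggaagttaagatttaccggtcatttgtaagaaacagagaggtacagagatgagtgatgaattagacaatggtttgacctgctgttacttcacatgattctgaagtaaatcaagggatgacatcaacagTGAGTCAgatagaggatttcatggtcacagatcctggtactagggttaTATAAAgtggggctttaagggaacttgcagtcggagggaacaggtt
Mmp3 (chr9:7445572-7445871, plus strand): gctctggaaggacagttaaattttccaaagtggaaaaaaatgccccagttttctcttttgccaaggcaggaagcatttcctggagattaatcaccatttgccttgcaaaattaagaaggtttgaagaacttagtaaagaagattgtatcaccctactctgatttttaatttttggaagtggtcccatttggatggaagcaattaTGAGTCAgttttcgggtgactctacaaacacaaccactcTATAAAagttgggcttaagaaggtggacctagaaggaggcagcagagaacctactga
Mmp10 (chr9:7502092-7502391, plus strand): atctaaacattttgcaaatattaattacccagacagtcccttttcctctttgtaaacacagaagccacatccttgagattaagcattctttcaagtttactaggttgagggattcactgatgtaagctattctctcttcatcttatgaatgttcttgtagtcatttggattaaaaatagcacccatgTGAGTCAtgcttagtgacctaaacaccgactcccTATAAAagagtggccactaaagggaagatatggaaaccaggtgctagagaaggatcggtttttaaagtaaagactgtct
Mmp8 (chr9:7558179-7558478, plus strand): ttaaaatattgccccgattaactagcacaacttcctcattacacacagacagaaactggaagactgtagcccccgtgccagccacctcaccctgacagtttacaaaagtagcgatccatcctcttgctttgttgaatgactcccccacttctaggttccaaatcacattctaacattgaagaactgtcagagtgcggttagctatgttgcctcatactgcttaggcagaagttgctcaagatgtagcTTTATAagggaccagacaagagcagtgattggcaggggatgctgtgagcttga
Mmp27 (chr9:7571146-7571445, plus strand): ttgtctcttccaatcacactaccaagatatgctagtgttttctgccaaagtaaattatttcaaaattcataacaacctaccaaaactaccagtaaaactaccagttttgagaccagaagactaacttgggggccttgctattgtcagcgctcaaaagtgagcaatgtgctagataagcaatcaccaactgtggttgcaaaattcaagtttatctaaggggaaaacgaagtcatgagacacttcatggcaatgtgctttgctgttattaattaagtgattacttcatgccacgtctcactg

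The AP-1 letters start 35 bases before the gene start in Mmp13, 44 in Mmp12, 46 in Mmp3 and 63 in Mmp10, counted back from the first transcribed base. None were found in the windows of Mmp8 and Mmp27. In all, 7 of the 9 cluster genes hold the AP-1 letters in a window, as do 7.81% of the 32851 mouse promoter windows searched. No other member had them: windows were given for 35 of the 50 members, and 7 held the letters. TATAAA or its reverse complement was found in 8 of the 9 cluster genes and in 13.6% of all windows. A match of letters is a description and not evidence of binding.

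Mmp3, a stromelysin that cleaves proteoglycans and activates other MMPs, had 124, 122 and 152 normalized counts in lipid-depleted TCM, 185, 102 and 114 in TCM, and 22.3, 16.2 and 3.28 in control. Every treated library exceeded every control library, and the treated groups overlapped. Mmp3 had a log2 change of 3.44 (SE 0.48, limma adjusted p = 4.5e-05) in TCM against control and one of 3.47 (SE 0.48, limma adjusted p = 4.1e-05) in lipid-depleted TCM against control. As folds on that scale these were 10.9 and 11.1, and they were 6.5 and 6.63 without control replicate 3, the lowest library. Mmp3 had a log2 change of 0.03 (SE 0.48, limma adjusted p = 0.96) in lipid-depleted TCM against TCM.

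Mmp13, the main interstitial collagenase of mice, had 159, 140 and 171 normalized counts in lipid-depleted TCM, 102, 34.1 and 86.7 in TCM, and 22.3, 10.4 and 19.7 in control. The groups did not overlap, and TCM spread widely, with replicate 2 low. Mmp13 had a log2 change of 1.95 (SE 0.36, limma adjusted p = 0.0005) in TCM against control, and in lipid-depleted TCM against control its log2 change was 3.15 (SE 0.36, limma adjusted p = 8.3e-06). In lipid-depleted TCM against TCM it was 1.21 (SE 0.36, limma adjusted p = 0.017). That difference was 0.73 (limma adjusted p = 0.049) without TCM replicate 2, and the call was lost without lipid-depleted TCM replicate 3 (log2 change 1.14, limma adjusted p = 0.058).

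Mmp27, a little-studied MMP, had 98.5, 113 and 104 normalized counts in lipid-depleted TCM, 135, 110 and 118 in TCM, and 26.6, 18.5 and 13.1 in control. Treated libraries were all above control, and they overlapped each other. Mmp27 had a log2 change of 2.63 (SE 0.22, limma adjusted p = 4.4e-07) in TCM against control and one of 2.43 (SE 0.22, limma adjusted p = 8.8e-07) in lipid-depleted TCM against control.

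The remaining cluster genes rested on few reads. Mmp8, the collagenase first known from neutrophils, had 8.27, 12.2 and 7.81 normalized counts in lipid-depleted TCM, 17.1, 10.4 and 14.4 in TCM, and 1.06, 0 and 0 in control. Control held 1 read of Mmp8 in all, so that the ratio of reads was 25.3 (95% interval 4.21 to 1030) for lipid-depleted TCM against control, with 30 reads, and 38 (6.48 to 1540) for TCM against control, with 44 reads. These exact intervals cover counting error only. Since only treated libraries brought Mmp8 into the set tested, its intervals are no support for a difference from control. For Mmp10, the second stromelysin, the values were 4.96, 11.2 and 13.7 normalized counts in lipid-depleted TCM, 12.4, 5.68 and 12.5 in TCM, and 5.31, 0 and 0 in control. Mmp10 was called higher in TCM (log2 change of 2.53, limma adjusted p = 0.0082) and in lipid-depleted TCM (log2 change of 2.47, limma adjusted p = 0.0093) than in control, but lipid-depleted TCM overlapped control. Only treated libraries brought Mmp10 into the set tested, so these p-values are no support for a difference from control. Without control replicate 1, which held all 5 control reads, the log2 changes were 3.41 and 3.35.

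Mmp12, macrophage elastase, had 14.9, 11.2 and 14.7 normalized counts in lipid-depleted TCM, 5.7, 4.73 and 0 in TCM, and 6.37, 6.95 and 0 in control. All lipid-depleted TCM libraries were above the others, yet neither comparison with them was called (log2 change of 2.10, limma adjusted p = 0.064 against TCM and log2 change of 1.90, limma adjusted p = 0.074 against control). Since only lipid-depleted TCM libraries brought Mmp12 into the set tested, its p-values are no support for a difference, including those against TCM by edgeR (adjusted p = 0.034) and DESeq2 (adjusted p = 0.041) on the recovered reads. Mmp1b, a rodent counterpart of interstitial collagenase, had at most 6.62 normalized counts, and Mmp20 (enamelysin) and Mmp7 (matrilysin) were at 0 in every library.

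**Figure D4:**
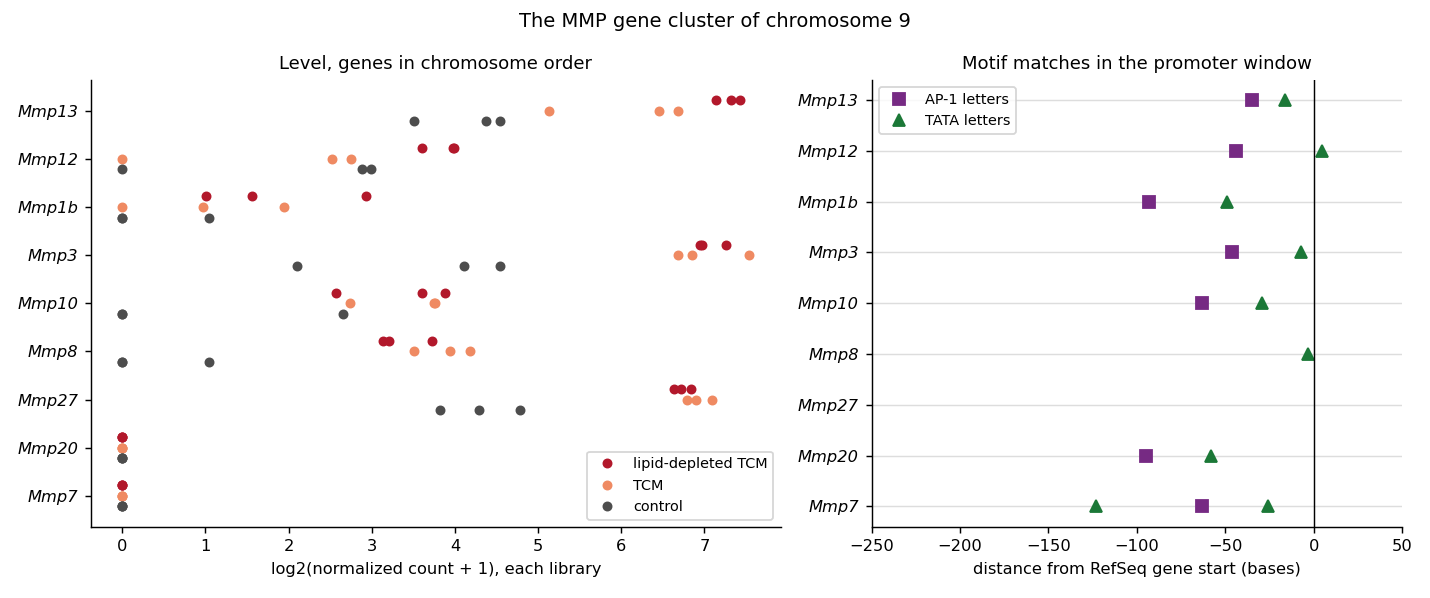
Left, log2(normalized count + 1) of the 9 MMP members of the chromosome 9 cluster in each library, in chromosome order; right, positions of the AP-1 and TATA letters relative to the RefSeq gene start (250 bases before to 50 after). Mmp13, Mmp3 and Mmp27 sit below 5 in control and mostly above 6 in the treated groups, while Mmp20 and Mmp7 are at 0 throughout.

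Per kilobase, Mmp11 was the most abundant member called higher in TCM than in control, apart from Timp1. Its product, a stromelysin known from the stroma of carcinomas, is activated inside the cell by furin. Mmp11 (ENSMUSG00000000901.17, chromosome 10, 75923222 to 75936496, minus strand, GRCm38) had 27105, 29999 and 28131 normalized counts in lipid-depleted TCM, 17159, 17344 and 18412 in TCM, and 6646, 6985 and 6435 in control. No groups overlapped, and each treated group was above control. Mmp11 had a log2 change of 1.40 (SE 0.05, limma adjusted p = 1.3e-10) in TCM against control, one of 0.69 (SE 0.05, limma adjusted p = 2.8e-07) in lipid-depleted TCM against TCM and one of 2.09 (SE 0.05, limma adjusted p = 5.8e-12) in lipid-depleted TCM against control. Mmp11 made up 29.8% of the MMP sum per kilobase in lipid-depleted TCM, 26.6% in TCM and 10.3% in control, and Mmp14 made up 33.6%, 33% and 52.6% in the same order.

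Mmp19 and Mmp23 moved in opposite directions. Mmp19, a secreted MMP, had 6391, 6311 and 6359 normalized counts in lipid-depleted TCM, 9002, 8242 and 8550 in TCM, and 5007, 4873 and 4815 in control. It was highest in TCM, with lipid-depleted TCM in between and no overlap. Mmp19 had a log2 change of 0.81 (SE 0.04, limma adjusted p = 4.8e-09) in TCM against control and one of -0.44 (SE 0.04, limma adjusted p = 4.0e-06) in lipid-depleted TCM against TCM. Tmem198b on the opposite strand shares 22.3% of its exon bases and averaged 1719 normalized counts, and although the libraries came from a stranded kit, the strand setting of the read counter is not given in the sources used here. Mmp23, an MMP anchored through its prodomain, had 2978, 3147 and 3409 normalized counts in lipid-depleted TCM, 1791, 1871 and 2029 in TCM, and 5927, 5810 and 5575 in control. It was lowest in TCM, and no groups overlapped. Mmp23 had a log2 change of -1.61 (SE 0.06, limma adjusted p = 2.2e-10) in TCM against control and one of 0.74 (SE 0.06, limma adjusted p = 8.3e-07) in lipid-depleted TCM against TCM. Mmp28 (epilysin) had 1411, 1547 and 1500 normalized counts in lipid-depleted TCM, 722, 784 and 779 in TCM, and 990, 1016 and 1002 in control. Lipid-depleted TCM exceeded both other groups, and TCM was lowest, with log2 changes of 0.96 against TCM and 0.57 against control (limma adjusted p = 6.3e-08 and 3.2e-06).

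ADAMTS proteoglycanases cleave aggrecan and versican, and their members split. Adamts1 and Adamts5 were higher in TCM and higher again without lipids, whereas Adamts4 was lower in both treated groups. Adamts5, an aggrecanase, had 40450, 37844 and 37877 normalized counts in lipid-depleted TCM, 24787, 25572 and 24767 in TCM, and 13109, 13327 and 13197 in control. The groups were separate, with control lowest and lipid-depleted TCM highest. Adamts5 had a log2 change of 0.92 (SE 0.04, limma adjusted p = 7.8e-10) in TCM against control, one of 0.63 (SE 0.04, limma adjusted p = 8.5e-08) in lipid-depleted TCM against TCM and one of 1.55 (SE 0.04, limma adjusted p = 9.2e-12) in lipid-depleted TCM against control. Adamts1, its neighbour on chromosome 16, had 28020, 26785 and 27114 normalized counts in lipid-depleted TCM, 23232, 22150 and 21859 in TCM, and 18526, 18322 and 17990 in control. Its groups were separate in the same way, with log2 changes of 0.29 in TCM against control and 0.58 in lipid-depleted TCM against control (limma adjusted p = 3.2e-05 and 5.6e-08).

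Adamts4, the other main aggrecanase, had 3147, 3113 and 3216 normalized counts in lipid-depleted TCM, 3539, 3628 and 3934 in TCM, and 6099, 6326 and 6440 in control. No groups overlapped, and lipid-depleted TCM was lowest. Adamts4 had a log2 change of -0.77 (SE 0.05, limma adjusted p = 2.7e-08) in TCM against control and one of -0.99 (SE 0.05, limma adjusted p = 2.2e-09) in lipid-depleted TCM against control. Adamts9, which clears versican at the cell surface, averaged 3645 ± 203 normalized counts in lipid-depleted TCM, 2134 ± 118 in TCM and 3087 ± 62.5 in control and differed in each comparison (log2 change -0.53 in TCM against control, 0.77 in lipid-depleted TCM against TCM). Adamts20 averaged 37.1 ± 2.19 normalized counts in lipid-depleted TCM, 29.2 ± 4.46 in TCM and 70.1 ± 11.9 in control and was called lower in both treated groups than in control. Adamts15 averaged 76.5 ± 15.6 normalized counts in lipid-depleted TCM, 47.6 ± 8.69 in TCM and 54 ± 8.2 in control and was called only in lipid-depleted TCM against TCM (log2 change of 0.67, limma adjusted p = 0.019), a call lost without TCM replicate 3 (limma adjusted p = 0.07) or lipid-depleted TCM replicate 1 (0.09). Versican itself, Vcan, averaged 28760 ± 1940 normalized counts in lipid-depleted TCM, 45121 ± 3470 in TCM and 91533 ± 6490 in control, and aggrecan, Acan, averaged 13 ± 4.49, 14.6 ± 7.01 and 122 ± 25.2 in the same order (SD, n = 3 each).

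Enzymes that trim the amino-terminal propeptide of procollagens each moved differently. Adamts2, the main one in skin, averaged 20073 ± 285 normalized counts in lipid-depleted TCM, 18412 ± 1620 in TCM and 21214 ± 286 in control. It was called lower in TCM than in control (log2 change of -0.21, limma adjusted p = 0.0057), a call lost with libraries scaled to the same total (-0.05, limma adjusted p = 0.4). Adamts14 averaged 1214 ± 82.1 normalized counts in lipid-depleted TCM, 1062 ± 154 in TCM and 823 ± 2.41 in control and was higher than control in both treated groups (log2 change of 0.36, limma adjusted p = 0.0046 in TCM). Adamts3 averaged 20.3 ± 1.23 normalized counts in lipid-depleted TCM, 37.8 ± 5.97 in TCM and 35.7 ± 3.48 in control and fell without lipids (log2 change of -0.86, limma adjusted p = 0.0053 against TCM). Of the enzymes that cut cartilage oligomeric matrix protein, Adamts12 had 7452, 6984 and 7163 normalized counts in lipid-depleted TCM, 4501, 4715 and 4639 in TCM, and 11540, 11418 and 12592 in control. TCM was lowest, and all groups were separate. Adamts12 had a log2 change of -1.36 (SE 0.05, limma adjusted p = 1.2e-10) in TCM against control and one of 0.64 (SE 0.05, limma adjusted p = 3.6e-07) in lipid-depleted TCM against TCM. Adamts7 averaged 1154 ± 7.38 normalized counts in lipid-depleted TCM, 784 ± 41.6 in TCM and 1109 ± 22.2 in control, with a log2 change of -0.50, limma adjusted p = 7.5e-06 in TCM against control and no call between lipid-depleted TCM and control (log2 change of 0.06, limma adjusted p = 0.4).

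The deepest falls of tested members in TCM against control were those of Adamts18 and Adamts16, a closely related pair. Adamts18 had 110, 103 and 103 normalized counts in lipid-depleted TCM, 27.6, 27.4 and 18.3 in TCM, and 675, 733 and 633 in control. Control exceeded the treated groups in every library, and lipid-depleted TCM exceeded TCM. Adamts18 had a log2 change of -4.76 (SE 0.16, limma adjusted p = 7.0e-11) in TCM against control, one of 2.09 (SE 0.16, limma adjusted p = 4.2e-07) in lipid-depleted TCM against TCM and one of -2.68 (SE 0.16, limma adjusted p = 1.3e-08) in lipid-depleted TCM against control. For Adamts16 the values were 568, 518 and 542 normalized counts in lipid-depleted TCM, 137, 156 and 140 in TCM, and 1630, 1513 and 1417 in control, and its groups were separate in the same way. Adamts16 had a log2 change of -3.39 (SE 0.08, limma adjusted p = 4.6e-12) in TCM against control and one of 1.91 (SE 0.08, limma adjusted p = 3.6e-09) in lipid-depleted TCM against TCM. Pericyte markers were lower in TCM and in lipid-depleted TCM than in control as well, and their part in these falls was not tested.

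Adamts10, Adamts6 and Adamts17 are linked to fibrillin microfibrils. Adamts10 had 8253, 9994 and 10081 normalized counts in lipid-depleted TCM, 4194, 3785 and 4270 in TCM, and 6127, 6478 and 5452 in control. Lipid-depleted TCM was highest and TCM lowest, with no overlap. Adamts10 had a log2 change of 1.21 (SE 0.08, limma adjusted p = 1.8e-07) in lipid-depleted TCM against TCM, one of -0.56 (SE 0.08, limma adjusted p = 7.6e-05) in TCM against control and one of 0.65 (SE 0.08, limma adjusted p = 2.0e-05) in lipid-depleted TCM against control. Adamts6, a close relative, averaged 1656 ± 124 normalized counts in lipid-depleted TCM, 1301 ± 72.1 in TCM and 3047 ± 147 in control and stayed below control in lipid-depleted TCM (log2 change of -0.88, limma adjusted p = 1.2e-07). Adamts17 averaged 13.5 ± 7.3 normalized counts in lipid-depleted TCM, 8.88 ± 4.63 in TCM and 41.3 ± 6.52 in control and was lower in both treated groups than in control (log2 change of -2.19, limma adjusted p = 0.0007 in TCM).

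**Figure D5:**
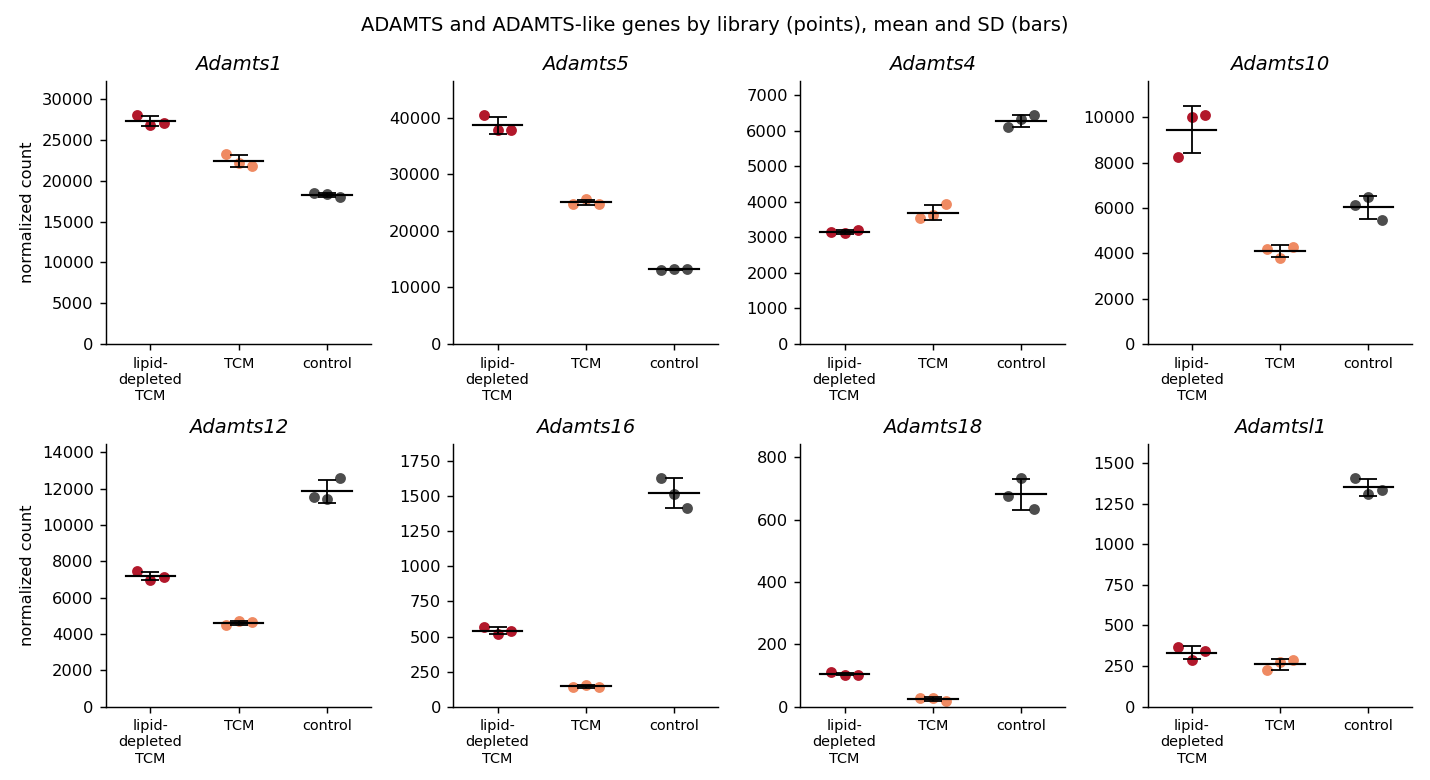
Normalized counts of 8 ADAMTS and ADAMTS-like genes in each library (points), with group mean and SD (n = 3); every axis starts at 0. Adamts1 and Adamts5 are highest in lipid-depleted TCM and lowest in control, Adamts4 is lowest in lipid-depleted TCM, Adamts10 is highest in lipid-depleted TCM and lowest in TCM, and Adamts12, Adamts16, Adamts18 and Adamtsl1 are highest in control.

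ADAMTS-like proteins bind matrix without protease activity. Adamtsl1 had 368, 290 and 341 normalized counts in lipid-depleted TCM, 224, 273 and 288 in TCM, and 1408, 1310 and 1332 in control. Control was far above both treated groups, which came within a few counts of each other without overlap. Adamtsl1 had a log2 change of -2.37 (SE 0.11, limma adjusted p = 1.3e-09) in TCM against control and one of -2.02 (SE 0.11, limma adjusted p = 5.3e-09) in lipid-depleted TCM against control. Its call in lipid-depleted TCM against TCM (log2 change of 0.35, limma adjusted p = 0.019) was lost in a fit of those groups alone (limma adjusted p = 0.056), or when lipid-depleted TCM replicate 1 (0.086) or 3 (0.063) was left out. Adamtsl2, which binds fibrillin and latent TGF-beta binding protein, had 201, 185 and 248 normalized counts in lipid-depleted TCM, 164, 177 and 174 in TCM, and 436, 457 and 381 in control. All treated libraries were below control, with a log2 change of -1.30, limma adjusted p = 1.0e-06 in TCM against control and a log2 change of -1.01, limma adjusted p = 1.0e-05 in lipid-depleted TCM against control.

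Adamtsl3, another ADAMTS-like gene, had 1266, 1283 and 1203 normalized counts in lipid-depleted TCM, 1820, 2052 and 1971 in TCM, and 1546, 1490 and 1505 in control. TCM was highest and lipid-depleted TCM lowest, without overlap. Adamtsl3 had a log2 change of 0.36 (SE 0.06, limma adjusted p = 0.00012) in TCM against control and one of -0.64 (SE 0.06, limma adjusted p = 1.8e-06) in lipid-depleted TCM against TCM. Against control, lipid-depleted TCM had a log2 change of -0.28, limma adjusted p = 0.00098, a call lost with libraries scaled to the same total (-0.13, limma adjusted p = 0.056). Adamtsl4, a fibrillin-binding protein, averaged 392 ± 9.96 normalized counts in lipid-depleted TCM, 406 ± 25.6 in TCM and 600 ± 35.3 in control and was lower than control in both treated groups (log2 change of -0.61, limma adjusted p = 2.0e-05 in lipid-depleted TCM). Adamtsl5, the most abundant ADAMTS-like gene per kilobase, averaged 5018 ± 464 normalized counts in lipid-depleted TCM, 3821 ± 570 in TCM and 3247 ± 106 in control and was called higher in lipid-depleted TCM than in TCM (log2 change of 0.40, limma adjusted p = 0.0044) and than in control (log2 change of 0.62, limma adjusted p = 9.6e-05). Between TCM and control it was not called (log2 change of 0.22, limma adjusted p = 0.059), but it was called higher under 6 alternatives. Adamtsl5 then had a log2 change of 0.38 with libraries brought to 1 total (limma adjusted p = 0.0025), 0.26 with TMM scaling (0.031), 0.25 by edgeR (adjusted p = 0.037), 0.23 by DESeq2 (adjusted p = 0.033), 0.22 with the replicate block (limma adjusted p = 0.019) and 0.35 without TCM replicate 1, its lowest TCM library (limma adjusted p = 0.00017).

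Besides Mmp1b, Mmp7 and Mmp20, the members too low to test were Mmp21, Mmp24, Adamts8, Adamts13 and Adamts19. Their highest value in any library was 0.946 normalized counts for Mmp21, 8.11 for Mmp24, 7.44 for Adamts8, 4.06 for Adamts13, the enzyme that cleaves von Willebrand factor, and 8.5 for Adamts19. Adamts19 had 3 reads in lipid-depleted TCM, 2 in TCM and 15 in control. The ratio of reads for TCM against control was 0.115 (exact 95% interval 0.0128 to 0.495, counting error only).

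Genes that activate, restrain or clear these proteases were listed separately, and 13 of the 16 found were tested. In this list 4 were higher and 6 lower in TCM than in control, 7 were higher and 3 lower in lipid-depleted TCM than in TCM, and 7 were higher and 4 lower in lipid-depleted TCM than in control. The shares called were 76.9%, 76.9% and 84.6%, against 60.5%, 45.2% and 60.0% of all genes tested in these comparisons (29.5% higher and 31.0% lower, 22.7% and 22.5%, and 29.4% and 30.6%). Reck, a membrane-anchored MMP inhibitor, rose in each (log2 change 0.51 in TCM against control, 0.42 in lipid-depleted TCM against TCM and 0.93 in lipid-depleted TCM against control). Spock2, a testican proteoglycan, averaged 463 ± 1.87 normalized counts in lipid-depleted TCM, 306 ± 11.7 in TCM and 149 ± 14.2 in control (SD, n = 3 each). Pcsk6, a proprotein convertase, averaged 3500 ± 8.44 in lipid-depleted TCM, 1389 ± 40.3 in TCM and 2491 ± 94 in control. Furin, the convertase that activates Mmp11 and Mmp14, was slightly lower in TCM than in control (log2 change -0.19) and was not called between lipid-depleted TCM and TCM (-0.05).

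A list of other extracellular proteases held 20 genes, of which 16 were tested, and 4 were higher and 10 lower in TCM than in control. Relative to TCM, lipid-depleted TCM had 7 higher and 6 lower, and relative to control it had 7 higher and 7 lower. In the order given, 87.5%, 81.2% and 87.5% were called, against 60.5%, 45.2% and 60.0% of all genes tested. Fap, fibroblast activation protein, averaged 550 ± 19.7 normalized counts in lipid-depleted TCM, 203 ± 15.3 in TCM and 297 ± 28.6 in control. Bmp1 and Tll1, which remove the carboxy-terminal propeptide of procollagens, fell in TCM (log2 change -0.42 and -1.08 against control) and fell further without lipids (-0.25 and -0.74 against TCM).

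Of 13 ADAM genes, which encode membrane-bound relatives, 11 were tested. There were 3 higher and 4 lower in TCM than in control, 3 higher and 4 lower in lipid-depleted TCM than in TCM, and 2 higher and 5 lower in lipid-depleted TCM than in control. In each comparison 63.6% were called, which is near the share of all genes tested in TCM against control (60.5%) and in the comparison of lipid-depleted TCM with control (60.0%), and stands beside 45.2% in lipid-depleted TCM against TCM. Adam12 averaged 9336 ± 466 normalized counts in lipid-depleted TCM, 5801 ± 438 in TCM and 25172 ± 922 in control. A further list held 7 genes, Papln, Thsd4, Pofut2, B3glct, Pcolce, Pcolce2 and Furin, and Furin was also counted in the list of activating genes above. Of the 7, 6 were lower in TCM than in control, with Pcolce, Pcolce2 and Furin among them. In lipid-depleted TCM, 3 were higher and 1 lower than in TCM, and 1 was higher and 4 lower than in control. These are 85.7%, 57.1% and 71.4% of the 7, beside the same shares of all genes (60.5%, 45.2% and 60.0%). The count for TCM against control was 3 of either direction with libraries scaled to the same total. Among them Pofut2, which starts the O-fucose glycan of ADAMTS repeats, averaged 7662 ± 135 normalized counts in lipid-depleted TCM, 6045 ± 650 in TCM and 9887 ± 184 in control.

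Among 17 genes of matrix substrates, 15 were tested, and 2 were higher and 11 lower in TCM than in control. In lipid-depleted TCM against TCM 8 were higher and 1 lower, and in lipid-depleted TCM against control 2 were higher and 10 lower. Called substrate genes were 86.7%, 60.0% and 80.0% of those tested, against 60.5%, 45.2% and 60.0% of all genes tested (29.5% higher and 31.0% lower, 22.7% and 22.5%, and 29.4% and 30.6%). The 1 that fell further without lipids was Vcan (log2 change -0.65 against TCM). Dcn, the small proteoglycan decorin, averaged 14690 ± 265 normalized counts in lipid-depleted TCM, 10835 ± 627 in TCM and 4664 ± 75 in control. Col1a1, a chain of type I collagen, averaged 391091 ± 10200 in lipid-depleted TCM, 272808 ± 53300 in TCM and 927289 ± 18300 in control (SD, n = 3 each).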

How the data were processed

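RNA of 9 libraries, 3 per group, had been sequenced with a stranded kit, per the labels. Per the submitters' processing notes the authors used STAR 2.7.9a, Trim Galore 0.6.6 and FastQC, the mm10 build and DESeq2. For the counter, its strand setting and its annotation, nothing is given in the sources used here. The deposited values are a signal: read counts that the authors scaled by a size factor for each library. Whole reads were recovered for 100% of the values, within a tolerance of 0.01 reads. Gene names, lengths and types came from GENCODE M21, matching 55141 of 55401 identifiers.

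Genes with at least 10 in at least 3 of 9 libraries were tested with limma 3.58.1 (R 4.3.3) on log2(value + 1), with a variance trend, 3 group means over all 9 libraries, 6 residual degrees of freedom and Benjamini-Hochberg adjustment over 16950 genes. Exact permutation tests used scipy 1.17.1. Comparisons share libraries and are given side by side. On the recovered reads edgeR 4.0.16 called 10232 genes in TCM against control, and with lipid-depleted TCM it called 7744 against TCM and 10174 against control, while DESeq2 1.42.0 served as a further alternative. The fit was tested on simulated data with 200 genes changed and the same spread setting for every gene. Far more genes were called in the real data, so the simulation does not show how the fit performs there. Intervals on reads cover counting error only.

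Values in every library are given for the 6 largest rises and 6 largest falls called per comparison whose higher group averages at least 50, all TIMP genes and the 6 highest members per kilobase; Adamts1, Mmp8, Mmp10 and Mmp12 were added after their values were seen. The members and lists were chosen with earlier results of these data known. Cpamd8, 1 of the listed genes, was not found among protein-coding symbols of the annotation and was not used here.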

Additional observations from a re-analysis of the deposited data

How the results depend on the processing

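Of 100 member results called, 6 lost the call under some alternative and 0 turned direction, over changes of pseudocount, filter, scaling, tool, libraries in the fit and left-out libraries. Of the results not called, 10 gained a call in the direction of the main fit under some alternative. Calls gained with the opposite sign are not in that count, such as Timp2 in lipid-depleted TCM against control with libraries scaled to the same total. Numbers of members called higher and lower ranged from 11 to 14 and 21 to 25 in TCM against control, 23 to 24 and 4 to 5 in lipid-depleted TCM against TCM, and 14 to 20 and 16 to 21 in lipid-depleted TCM against control. Leaving out 1 library gave 13 to 14 and 23, 21 to 24 and 5, and 16 to 18 and 19. Summed levels per kilobase in lipid-depleted TCM, TCM and control were 35450, 24868 and 21909 for MMP genes with libraries scaled to the same total, where TIMP genes had 23917 in lipid-depleted TCM and 27791 in control. With the longest transcript as length they were 47957, 33117 and 36458 for MMP genes, 29113, 27189 and 37001 for TIMP genes, and the ratio was 1.65, 1.22 and 0.986. In the list that holds Papln, Pofut2, Pcolce and Furin, the genes called numbered 3 in place of 6 in TCM against control with libraries scaled to the same total. In lipid-depleted TCM against control they numbered 3 in place of 5 under that scaling, and 3 to 4 when 1 library was left out.

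The log2 changes that turned sign were not called in the first place. In lipid-depleted TCM against TCM, Mmp3 was -0.02 by edgeR and -0.01 by DESeq2, and when 1 library was left out Mmp3 ranged from -0.14 to 0.29, Mmp10 from -0.40 to 0.33, Mmp15 from -0.08 to 0.12 and Timp4 from -0.59 to 0.03. In TCM against control, Adamts3 ranged from -0.05 to 0.14 and Mmp12 from -1.18 to 0.67. In lipid-depleted TCM against control, libraries scaled to the same total gave 0.07 for Adamts2, 0.05 for Mmp14 and 0.14 for Timp2, which was 0.03 with TMM scaling. The cause was not tested.

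With the replicate number as a block, 14 members were higher and 23 lower in TCM against control, 24 and 5 in lipid-depleted TCM against TCM, and 18 and 19 in lipid-depleted TCM against control. Over all 16950 genes the same fit called 4842 higher and 5130 lower, 3669 and 3659, and 4863 and 5098 in the same order. Deviations of each library from the mean of its own group correlated at -0.025 to 0.027 over 9 pairs of same-numbered libraries. Of 18 comparisons, 2 were best with their own number. These deviations showed no pairing by number. They cannot tell whether same-numbered libraries shared an animal or culture, since only differences within a group were compared and the labels do not say. Few reads limit Mmp8, Mmp10, Mmp12 and the untested members.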

Other observations

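Other letters were searched in the same promoter windows, on both strands. The ETS letters AGGAAG were found in 14 of the 35 members with a window and in 6 of the 9 genes of the chromosome 9 cluster, against 35.4% of all 32851 windows. The letters of the TGF-beta inhibitory element were found in 0 of the 35 members and in 4.98% of all windows. A missing match says only that these letters are not in these windows.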
